A study of Mus musculus with 9 samples.

Results

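Bone was compared with mature cartilage by RNA sequencing, with 6 of the 9 libraries of the series. The first group, called Bone, held 3 libraries of bone whose cell type is labelled osteoblasts. The second, MatC, held 3 libraries of mature cartilage labelled mature chondrocytes. The other 3 libraries, of immature cartilage, were kept out of the fit, so that the spread of these 6 alone set the error. All 6 came from C57BL/6J mice, an inbred laboratory strain, and the labels give no transgene, treatment, age or anatomical site for either group. Nothing in them says that the 3 libraries of a group came from separate animals, so the p-values measure the spread between these libraries, which may be technical. RNA was isolated with a PicoPure kit, made for small samples, and amplified for 1 round before library construction. The question was which genes separate osteoblasts from mature chondrocytes.

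Chondrocytes build cartilage from type II collagen and the proteoglycan aggrecan under the transcription factor Sox9 and its partners Sox5 and Sox6. As they mature they enlarge, secrete type X collagen and Indian hedgehog, and share several regulators with bone cells, among them Runx2 and Mef2c. Osteoblasts act under Runx2 and osterix (Sp7) and lay down type I collagen, bone sialoprotein and osteonectin, a matrix that then mineralizes; the most mature of them become embedded as osteocytes.

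The libraries held 7913684 counts (Bone 2) to 23159547 counts (MatC 2). The MatC libraries were uneven: transcripts of the mitochondrial genome took 33.7%, 69.1% and 82.3% of the counts in MatC 1, 2 and 3, against 7.24% to 8.91% in Bone. Counts of other genes therefore ranged from 1904092 in MatC 3 to 11339706 in Bone 1, and MatC 3 had reads for 14940 genes where the other 5 libraries had 17831 to 19584. Levels are given as CPM, the count scaled to a library of 1000000 after adjustment by edgeR's TMM factors. In MatC 3 a level of 3 reads corresponded to 0.857 CPM, and to at most 0.255 CPM elsewhere. Spearman's rho across genes was 0.972 to 0.981 among the Bone libraries and 0.839 to 0.909 among the MatC libraries. Values below are in library order 1, 2, 3, and a log2 fold change is Bone minus MatC. Its approximate standard error (SE) was back-calculated from edgeR's quasi-likelihood test. It is the absolute log2 fold change divided by the square root of the F statistic.

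Of 43472 genes in the table, 13324 passed the filter on low counts and were tested. Levels in Bone exceeded those in MatC for 442 genes (3.32%) and were below them for 762 (5.72%), in all 1204 (9.04%) in either direction, at an adjusted p under 0.05 from edgeR's quasi-likelihood test. The lower set held the larger differences: 588 of its genes had a log2 fold change of -2 or less, while 196 of the higher set reached 2 or more. The median log2 fold change was -2.99 among genes called lower, 1.80 among those called higher and 0.01 over all genes tested. No library of one group overlapped the other in any of the 442 genes called higher and in 760 of the 762 called lower, beside 19.8% and 16.5% of all tested genes with such separation. Genes called higher made up 36.7% of the calls, and this share was 48.5% with limma-voom and 22.6% with all 9 libraries in the fit. Of the calls, 201 (35 higher and 166 lower) were also made in each of the 6 fits that left out 1 library. Without Bone 1, 2 or 3 the fits called 59, 36 or 72 genes higher and 207, 175 or 276 lower, and without MatC 1 they called 815 higher and 1492 lower. Fits without Bone 1, 2 or 3 kept 22%, 17.4% and 28% of the 1204 calls. Those without MatC 1, 2 or 3 kept 89.5%, 74.6% and 91.6%. Each gene's dispersion was shared by both groups. An ended call without a Bone library, given for many genes below, was thus the usual outcome. Scaling by library size alone kept 307 of the 1204 calls, and 57 of the calls of the 127 genes named by rule. The library totals in that scaling include the mitochondrial counts, a larger part of MatC than of Bone. With mitochondrial genes removed before TMM scaling, 1142 of the 1204 calls were kept.

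**Figure D1:**
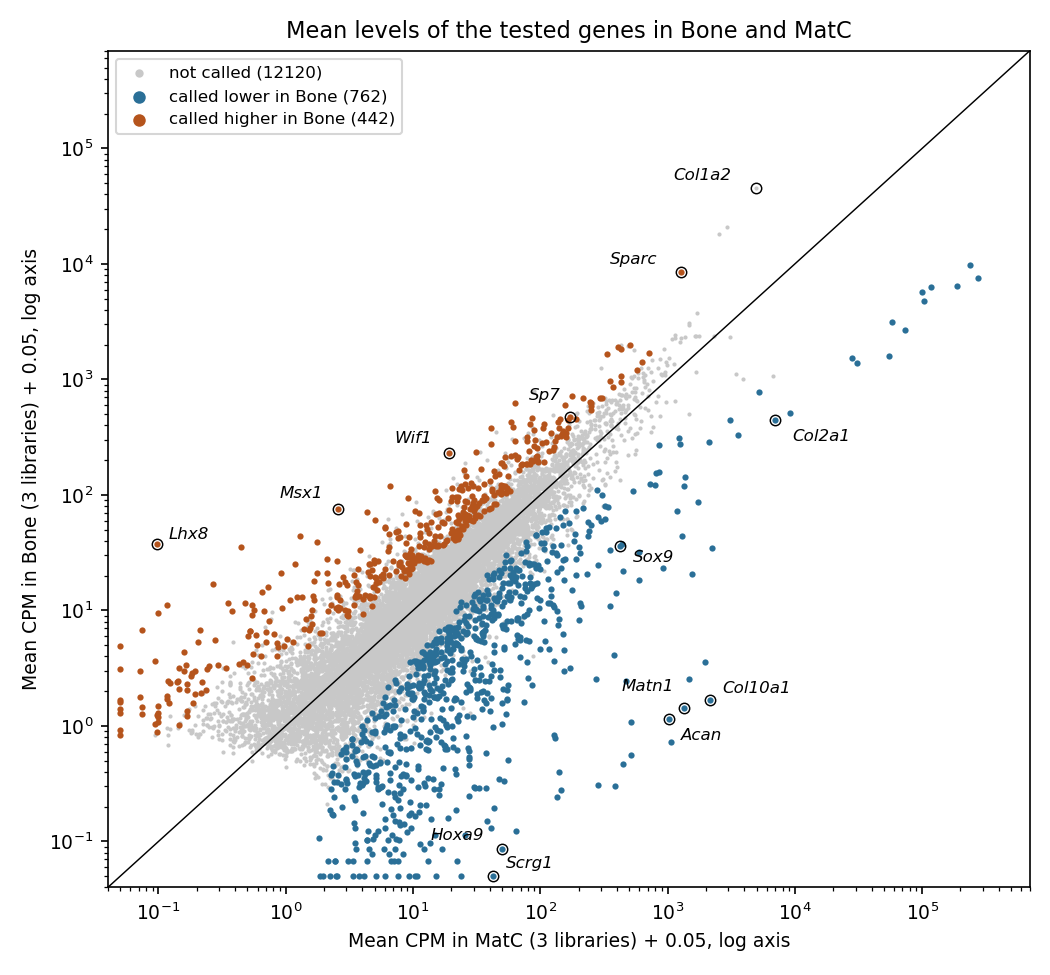
Mean CPM of each tested gene in MatC (x axis) and Bone (y axis), 3 libraries each, both on log axes after adding 0.05, with the 442 genes called higher and the 762 called lower in Bone coloured. Cartilage genes such as Matn1, Acan and Col10a1 lie far below the diagonal of equal levels, and Lhx8 and Msx1 far above it.

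Cartilage structural genes gave the largest differences. Of the 7 cartilage collagens, 5 were called lower in Bone, beside 5.72% of all genes tested, and the median of the 7 was -4.90. Col2a1, the main fibrillar collagen of cartilage (GRCm38 chromosome 15, 97975602 to 98004695, minus strand), stood at 8167, 4452 and 8478 CPM in MatC and at 666, 385 and 290 CPM in Bone. Each Bone library was thus below each MatC library, but Bone also held Col2a1 reads in quantity, and the log2 fold change was -3.98 with an SE of 0.51 (adjusted p = 0.00382). The 3 chains of type IX collagen, which coats the type II fibril, were lower by more. Col9a1 measured 2280, 792 and 2811 CPM in MatC and 3.70, 3.48 and 3.46 CPM in Bone, which is -9.11 on the log2 scale (SE 0.64, adjusted p = 0.000364). Col9a2 (-7.63), Col9a3 (-9.19) and Col27a1 (-4.90), another cartilage fibrillar collagen, were called as well. Type XI collagen, the third part of the cartilage fibril, was not: Col11a1 lay at 2076, 2678 and 2223 CPM in Bone and 3399, 2187 and 3726 CPM in MatC, with overlap, and Col11a2 was at -1.55 (adjusted p = 0.0964).

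Among 24 cartilage proteoglycans and other matrix proteins, 21 were tested and 15 called lower, with a median of -7.39 and no member called higher. The shares of all genes tested were 5.72% lower and 3.32% higher. Acan, the aggrecan core protein (chromosome 7, 79053483 to 79115099, plus strand), measured 943, 588 and 1534 CPM in MatC and 0.582, 0.850 and 1.87 CPM in Bone (log2 fold change -9.84, SE 0.69, adjusted p = 0.000364). Matn1, a filament-forming matrilin (chromosome 4, 130944385 to 130955475, plus strand), measured 1372, 652 and 2022 CPM in MatC and 1.27, 1.02 and 1.87 CPM in Bone (log2 fold change -9.90, SE 0.64, adjusted p = 0.000275). Comp, Epyc, Matn3 and Lect1 (chondromodulin) had log2 fold changes between -10.57 and -10.04. Hapln1, the link protein that ties aggrecan to hyaluronan, had 2748, 777 and 3168 CPM in MatC and still 59.1, 23.5 and 22.3 CPM in Bone (-5.99, adjusted p = 0.00318). Scrg1 (chromosome 8, 57455923 to 57477585, plus strand) had 0 reads in the 3 Bone libraries and 770 in MatC, which is at least 389-fold lower in Bone, taking 3 reads in the whole group as the floor. Other members were not called: Prg4 (lubricin), Chad and Vit had adjusted p of 0.874, 0.243 and 0.801. Of these 2 lists, 18 of the 20 calls were made in every leave-one-out fit, the exceptions being Cytl1 and Fibin. The size, not the call, depended on MatC 3 for several: without that library Comp was at -9.70, Epyc at -9.02, Lect1 at -9.25, Matn3 at -9.57, Scrg1 at -10.83 and Col9a2 at -6.88, while Acan was at -10.47 without Bone 3, Matn3 at -10.92 without Bone 2 and Epyc at -11.08 without Bone 1. With scaling by library size alone the Col2a1 call ended (adjusted p = 0.0698), against a range over its 15 alternatives from 7.49e-19 to 0.0698.

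**Figure D2:**
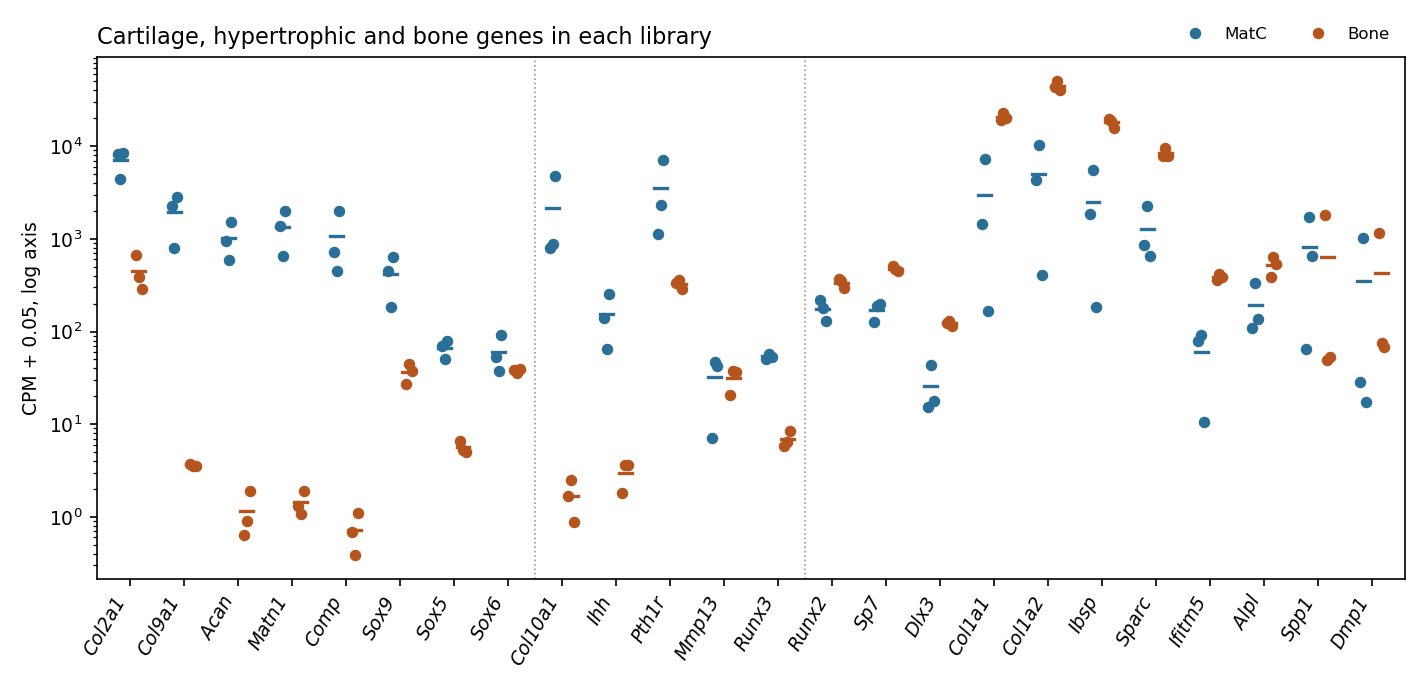
CPM plus 0.05 on a log axis for cartilage genes (left block), genes of enlarging chondrocytes (middle) and bone genes (right), with 1 point for each library, 3 in MatC and 3 in Bone, and a bar at the group mean. Cartilage genes separate widely, whereas for Col1a1, Col1a2 and Ibsp the Bone points lie close together and the MatC points far apart.

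Part of the transcription factors of the chondrocyte were lower in Bone. Of 18 listed, 16 were tested, 7 were called lower and none higher (median -0.57), beside 5.72% and 3.32% of all genes tested. Sox9 (chromosome 11, 112782224 to 112787760, plus strand) was at 446, 186 and 634 CPM in MatC and at 27.4, 44.3 and 37.4 CPM in Bone (log2 fold change -3.54, SE 0.48, adjusted p = 0.00503). Sox5, with 69.1, 50.0 and 79.4 CPM in MatC, fell to 6.56, 5.18 and 4.99 CPM in Bone (log2 fold change -3.56, SE 0.29, adjusted p = 0.000693). Their partner Sox6 overlapped between the groups, with 53.5, 37.1 and 90.8 CPM in MatC and 38.5, 35.8 and 39.7 CPM in Bone, and was not called (-0.66, adjusted p = 0.245). Sox8 (-3.41) and Wwp2 (-4.01), a ubiquitin ligase whose gene hosts a cartilage microRNA, were lower. So were the forkhead factors of maturing chondrocytes: Foxa3 had 29.8, 16.5 and 67.1 CPM in MatC and at most 0.159 CPM in a Bone library, and Foxa2 had 0 Bone reads, at least 139.5-fold lower. Runx3, at 50.9, 56.9 and 53.7 CPM in MatC and 5.71, 6.37 and 8.39 CPM in Bone, was at -2.98 on the log2 scale (SE 0.26, adjusted p = 0.000951). General partners such as Trps1, Mef2c, Mef2d and Hdac4 were not called (adjusted p 0.275 to 0.971). The calls of Sox9, Sox5, Sox8, Foxa2, Foxa3 and Runx3 were made without any 1 library, with Foxa3 at -7.71 without MatC 3. That of Wwp2 was not made in every leave-one-out fit. With scaling by library size alone the calls of Sox9, Sox5 (adjusted p = 0.0747) and Runx3 (adjusted p = 0.136) ended (for Sox9 adjusted p = 0.110, against a range over its 15 alternatives from 1.48e-12 to 0.110).

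Genes of the enlarging, hypertrophic chondrocyte included members near absent from Bone and members read at like levels in both groups. In all, 6 of 15 were lower and 1 higher, with a median of -1.15, beside 5.72% lower and 3.32% higher among all genes tested. Col10a1, the hypertrophic collagen (chromosome 10, 34389981 to 34397085, plus strand), stood at 795, 871 and 4805 CPM in MatC and 1.64, 2.46 and 0.823 CPM in Bone, or -10.38 on the log2 scale (SE 1.07, adjusted p = 0.00176) and -9.01 without MatC 3. Ihh, the hedgehog ligand of prehypertrophic cells, had 141, 64.6 and 257 CPM in MatC and 1.75, 3.57 and 3.57 CPM in Bone (-5.70, SE 0.60, adjusted p = 0.00193). Pth1r, the receptor for parathyroid hormone and its related protein, was abundant in both: 1130, 2342 and 7192 CPM in MatC and 332, 364 and 288 CPM in Bone. Its difference was -3.44 (SE 0.67, adjusted p = 0.0198) and -2.40 without MatC 3, and the call ended without each single Bone library (adjusted p up to 0.111 in those fits). By contrast Mmp13, a collagenase of late hypertrophic cells and of osteoblasts, measured 20.9, 37.6 and 36.2 CPM in Bone and 7.08, 47.0 and 42.3 CPM in MatC (adjusted p = 0.989). Panx3, a channel of both cell types, was at 371, 542 and 448 CPM in Bone and 681, 305 and 722 CPM in MatC (adjusted p = 0.616). Mef2c was also close in the 2 groups, at 680, 648 and 725 CPM in Bone and 616, 412 and 387 CPM in MatC (adjusted p = 0.275). The member called higher in Bone was Cebpb (1.88, adjusted p = 0.0374), a call that ended without each single Bone library and with 2.54 as its value without MatC 2.

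Beyond Ihh and Pth1r, the hedgehog list held Hhip as its other called gene. Of 18 hedgehog and parathyroid hormone-related genes, 16 were tested and 3 called lower (median -0.88): Ihh, Pth1r and the pathway inhibitor Hhip. Among all genes tested, 5.72% were called lower. Hhip measured 103 and 40.7 CPM in MatC 1 and 2 but 2.28 CPM in MatC 3, within the Bone values of 2.54, 1.70 and 3.57 CPM, and its call (adjusted p = 0.0412) ended in 5 of the 6 fits that left out a library, all but that without MatC 3. The receptor Ptch1, itself a target, was at 67.4, 123 and 150 CPM in Bone and 388, 150 and 209 CPM in MatC (-1.13, adjusted p = 0.137). Gli1, the other standard target, had adjusted p = 0.420, and the transducers Smo, Gli2, Gli3 and Sufu 0.419 to 0.957.

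The sequence just upstream of 3 of the most separated genes is shown because their promoters are where regulators of cartilage and bone would be sought: Matn1 and Col10a1, near absent from Bone, and Wif1, a Wnt inhibitor described further on, which was higher in Bone. Each run is the 250 bases before the RefSeq transcript start, 5′ to 3′ on the gene's strand (GRCm38.p6), with capitals marking every match, on either strand, to one of 6 short motifs: TATAAA for the TBP box, ACAAAG for one SOX hexamer, AACAAT for the other SOX hexamer, TGTGGT for RUNX factors, TAATTA for homeodomain factors and TGANTCA for AP-1 (matches of different motifs may overlap).
Matn1: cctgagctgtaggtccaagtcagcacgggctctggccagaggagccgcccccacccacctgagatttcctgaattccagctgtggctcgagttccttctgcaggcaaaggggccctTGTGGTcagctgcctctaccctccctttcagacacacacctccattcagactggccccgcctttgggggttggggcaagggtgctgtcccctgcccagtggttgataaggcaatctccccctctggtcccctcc
Col10a1: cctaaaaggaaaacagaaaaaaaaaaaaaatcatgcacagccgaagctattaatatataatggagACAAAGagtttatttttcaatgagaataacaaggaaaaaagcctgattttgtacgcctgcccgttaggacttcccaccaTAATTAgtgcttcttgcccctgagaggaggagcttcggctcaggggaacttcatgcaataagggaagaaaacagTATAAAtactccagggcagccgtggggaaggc
Wif1: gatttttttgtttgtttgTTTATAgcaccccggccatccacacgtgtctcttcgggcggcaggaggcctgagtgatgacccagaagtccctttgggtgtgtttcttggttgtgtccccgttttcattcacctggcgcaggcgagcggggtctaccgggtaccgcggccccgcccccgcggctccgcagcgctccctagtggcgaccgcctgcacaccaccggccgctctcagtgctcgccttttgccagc
The Matn1 window (chr4:130944135-130944384, plus strand) held a RUNX match, the Col10a1 window (chr10:34389731-34389980, plus strand) held matches to the TBP box, the first SOX hexamer and the homeodomain motif, and the Wif1 window (chr10:121033754-121034003, plus strand) held a match to the TBP box. The shares of windows with a match were as follows: TATAAA was in 6.44% of the 12275 windows of tested genes, in 9.05% of those of genes called lower and in 8.08% of those of genes called higher. ACAAAG was in 12%, 12.2% and 11.4% of the same 3 sets, and TGTGGT in 10.3%, 11.4% and 8.79%. TAATTA was in 2.50%, 3.59% and 3.80%, AACAAT in 5.25%, 4.06% and 4.99%, and TGANTCA in 4.26%, 4.84% and 5.7%. These are descriptions of letters in a window, not of bound sites.

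A few osteoblast regulators were higher in Bone. Of 24 listed, 23 were tested, 4 called higher and 2 lower (median 0.66), beside 3.32% and 5.72% of all genes tested. Sp7, the osteoblast factor osterix (chromosome 15, 102356606 to 102367182, minus strand), measured 505, 477 and 447 CPM in Bone and 126, 189 and 200 CPM in MatC (log2 fold change 1.47, SE 0.28, adjusted p = 0.0178). Its groups did not overlap, and Sp7 was read in quantity in every MatC library too. Dlx3 was at 125, 130 and 116 CPM in Bone and 15.5, 43.8 and 17.7 CPM in MatC (2.25, SE 0.41, adjusted p = 0.0153). Msx2 (2.96, adjusted p = 0.0119), a homeodomain factor of early osteoblasts, and Tcf7 (1.54, adjusted p = 0.0174), a mediator of Wnt signals, were also higher. Runx2, the factor both lineages need, was at 366, 350 and 293 CPM in Bone and 218, 179 and 131 CPM in MatC, without overlap, and missed the threshold (0.93, SE 0.28, adjusted p = 0.0734). It passed with DESeq2 (adjusted p = 0.0171), with limma-voom (adjusted p = 0.0460) and without MatC 1 (adjusted p = 0.0403). Dlx5 missed it as well (0.99, adjusted p = 0.132). The members called lower were Foxc2 (-2.36, adjusted p = 0.0172) and Ebf1 (-1.17, adjusted p = 0.0491). None of these 6 calls was made in every leave-one-out fit: those of Sp7, Dlx3, Tcf7, Foxc2 and Ebf1 ended without each of Bone 1, 2 and 3, that of Msx2 without Bone 1 or 2 and that of Ebf1 also without MatC 2. Without MatC 2, Dlx3 was at 2.91. Sp7, Msx2, Foxc2 and Ebf1 were not called with all 9 libraries in the fit, where Sp7 had adjusted p = 0.199 against a range over its 15 alternatives from 1.94e-05 to 0.199.

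Bone matrix genes were among the most abundant in the Bone libraries and spread widely in MatC. Col1a2 and Col1a1, the chains of type I collagen, and Ibsp, bone sialoprotein, took 6.91% to 8.19%, 3.22% to 3.69% and 2.70% to 3.27% of the non-mitochondrial counts in Bone. Col1a1 measured 19290, 23010 and 20070 CPM in Bone and 1447, 7213 and 165 CPM in MatC, so that MatC 2 and MatC 3 differed more in fold from each other than MatC 2 did from Bone. Its difference of 2.82 on the log2 scale (SE 1.09) was not called (adjusted p = 0.143). Col1a2 (3.18, adjusted p = 0.0843) and Ibsp (2.84, SE 0.99, adjusted p = 0.112) had the same form: Ibsp was at 19610, 18910 and 15870 CPM in Bone and 1862, 5548 and 186 CPM in MatC. Without MatC 2, Col1a1 was called, at 4.69 (adjusted p = 0.0390, against 0.312 at most over the other leave-one-out fits). All 3 genes were called with DESeq2 (adjusted p of 0.0113 for Col1a1, 0.000707 for Col1a2 and 0.00464 for Ibsp) and with no filter on low counts, and Col1a2 and Ibsp also without MatC 3 and with the replicate block. Col1a2 was called with limma-voom as well (adjusted p = 0.0419). MatC 2 was also the MatC library with the most counts from osteoclast, erythroid and muscle marker genes (values below), and the part of other tissue in these values was not tested. In bulk samples such as these, fewer cells of a type and less RNA per cell cannot be told apart.

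In the whole list of 32 bone collagens and matrix proteins, 30 were tested, 5 called higher and 2 lower (median 1.63). The shares of all genes tested were 3.32% higher and 5.72% lower. Sparc, osteonectin (chromosome 11, 55394500 to 55423183, minus strand), was at 7943, 9590 and 7920 CPM in Bone and 859, 2288 and 647 CPM in MatC (2.75, SE 0.55, adjusted p = 0.0216). Ifitm5, a small membrane protein made mainly by osteoblasts, was at 360, 417 and 390 CPM in Bone and 79.6, 92.1 and 10.6 CPM in MatC (2.67, SE 0.65, adjusted p = 0.0420). The proteoglycans Dcn (2.76) and Omd (2.74) and the secreted factor Serpinf1 (2.58) were the other 3, with adjusted p of 0.0329 to 0.0488. Mgp, the matrix Gla protein that inhibits calcification, went the other way, at 142, 45.4 and 113 CPM in MatC and 4.55, 3.06 and 6.14 CPM in Bone (-4.43, SE 0.50, adjusted p = 0.00234). Thbs1 was also lower (-2.71, adjusted p = 0.0119). Osteocalcin, a late osteoblast product, was almost unread: Bglap had 3.07, 0.935 and 0.658 CPM in Bone and at most 0.724 CPM in a MatC library, and Bglap and Bglap2 are near-identical copies whose reads may be split. Spp1, osteopontin, split the libraries instead of the groups, with 1809 CPM in Bone 1 and 48.7 and 53.3 CPM in Bone 2 and 3, beside 65, 1712 and 650 CPM in MatC (adjusted p = 0.906). Of the 7 calls in this list only that of Mgp was made in every leave-one-out fit. Sparc and Thbs1 ended without each Bone library, Dcn and Ifitm5 also without MatC 1, and Ifitm5 without MatC 2; Sparc was at 3.50 without MatC 2.

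Some osteocyte and mineral genes also set Bone 1 apart from the other Bone libraries. Of 12 osteocyte genes 10 were tested, 3 called higher and none lower (median 1.41): Npnt, Irx5 and Mepe. Npnt, an integrin ligand, was at 51.9, 68.7 and 54.2 CPM in Bone and 19.6, 17.5 and 13.4 CPM in MatC (1.78, SE 0.26, adjusted p = 0.00672), and its call ended without Bone 2 (adjusted p = 0.0554). Mepe was at 2.91, 2.63 and 2.36 CPM in Bone, and MatC 2 was the one MatC library with reads, at 0.395 CPM. Dmp1, a matrix phosphoprotein of osteocytes, had 1156 CPM in Bone 1, 74.8 and 68.2 CPM in Bone 2 and 3, and 28.8, 1015 and 17.4 CPM in MatC (adjusted p = 0.929). Sost, sclerostin, was at 7.56, 2.29 and 6.42 CPM in Bone and 0.369, 7.83 and 0 CPM in MatC (0.87, adjusted p = 0.657), and was called without MatC 2, at 4.30 (adjusted p = 0.0378). Dmp1, Spp1 and Sost were thus each highest within MatC in MatC 2. Of 16 mineral deposition genes 15 were tested, with 1 higher (Anxa2, 1.18, adjusted p = 0.0364) and 2 lower, Mgp and the phosphate carrier Slc20a1 (-1.84, adjusted p = 0.0131). Among all genes tested, 3.32% were called higher and 5.72% lower. Alpl, the alkaline phosphatase that frees phosphate for mineral, was at 388, 631 and 532 CPM in Bone and 110, 335 and 138 CPM in MatC, without overlap and without a call (1.41, adjusted p = 0.0873). It was called without MatC 2, at 2.07 (adjusted p = 0.0160), with no filter on low counts, with DESeq2, with limma-voom and with the replicate block. Smpd3, a sphingomyelinase needed for mineralization, was at 390, 354 and 333 CPM in Bone and 494, 495 and 480 CPM in MatC (adjusted p = 0.276). Enpp1, which makes the mineralization inhibitor pyrophosphate, was at 125 CPM in Bone 1 and at 7.73 and 5.92 CPM in the other Bone libraries. The Irx5, Mepe and Anxa2 calls ended without each Bone library, and without MatC 1 for Irx5 and MatC 2 for Anxa2, and that of Slc20a1 without Bone 1 or 2. Mepe moved to 3.10 without MatC 1 and to 8.12 without MatC 2.

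Enzymes and transporters that build the sulphated sugar chains of proteoglycans were more often called lower than higher in Bone. Of 36 glycosaminoglycan genes 34 were tested, 9 called lower and 2 higher (median -0.55), beside 5.72% and 3.32% of all genes tested. Slc26a2, the sulphate transporter, had 316, 323 and 330 CPM in MatC and 63.4, 57.4 and 64.7 CPM in Bone (-2.38, SE 0.23, adjusted p = 0.00154), and its libraries lay close together within each group. Slc35d1, which imports nucleotide sugars into the Golgi, had 111, 84.6 and 182 CPM in MatC and 10.5, 10.8 and 11.7 CPM in Bone (-3.51, adjusted p = 0.00145). Csgalnact1, which starts chondroitin chains, was at -3.22 (adjusted p = 0.00361). Lower too were Papss2 (-2.50), which makes the sulphate donor, Xylt1 (-3.64), Fam20b (-1.76), Chst12 (-1.27), Extl1 (-4.32) and the hyaluronan synthase Has2 (-3.98). The 2 called higher were Ust, a uronyl sulphotransferase, at 55.9, 54.6 and 53.8 CPM in Bone and 17.9, 10.5 and 5.71 CPM in MatC (2.23, adjusted p = 0.0128), and Chsy1, a chondroitin synthase (1.42, adjusted p = 0.0208). The Slc26a2, Slc35d1 and Csgalnact1 calls were made in every leave-one-out fit and ended with scaling by library size alone, where their values were -1.38, -2.38 and -2.21. Ust ended without Bone 1 or 2, Chsy1 without each Bone library and Extl1 without Bone 2 or 3, with Extl1 at -3.39 without MatC 3 and -4.95 without Bone 1. The calls of Papss2, Xylt1, Fam20b, Chst12 and Has2 were likewise not made in every such fit.

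Fewer genes of collagen processing were called. All 30 genes for collagen modification, folding and cross-linking were tested, with 4 called lower and 1 higher (median 0.24). Among all genes tested, 5.72% were called lower and 3.32% higher. Colgalt2, a collagen galactosyltransferase, was at 122, 63.3 and 198 CPM in MatC and 2.12, 3.91 and 4.77 CPM in Bone (-5.15, SE 0.53, adjusted p = 0.00171), while its paralogue Colgalt1 lay at 47.1 to 53.3 CPM in Bone and 51.4 to 77.6 CPM in MatC (adjusted p = 0.387). Loxl3 (-3.62), Adamts3 (-1.96), the protease that trims type II procollagen, and the lysyl hydroxylase Plod2 (-1.61) were lower, and Leprel4, a subunit of the complex that modifies helical lysine, was higher (1.16, adjusted p = 0.0242). Lox itself was at 1233, 1354 and 1168 CPM in Bone and 449, 415 and 31.1 CPM in MatC and was not called (adjusted p = 0.135). The collagen chaperone Serpinh1 was not called either (adjusted p = 0.0894). Apart from Colgalt2, these calls ended without Bone 1 or Bone 2, and those of Adamts3, Plod2 and Leprel4 also without Bone 3; Loxl3 was at -2.72 without MatC 3. Of 26 matrix proteases and inhibitors 23 were tested and 1 was called in each direction, near the shares among all genes tested. Timp1, at 209, 187 and 157 CPM in Bone and 62.7, 97.7 and 76.8 CPM in MatC, was higher (1.22, adjusted p = 0.0281), and Timp3 was lower (-1.87, adjusted p = 0.0352), both calls that ended without each Bone library, and that of Timp3 also without MatC 2.

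Called Wnt ligands were lower in Bone, and called Wnt inhibitors went both ways. Of 40 Wnt genes, 35 were tested, 6 called lower and 4 higher (median 0.27), beside 5.72% and 3.32% of all genes tested. The 4 ligands called were lower in Bone. Wnt4 had 59.7, 44.5 and 64.2 CPM in MatC and 2.59, 1.95 and 2.08 CPM in Bone (-4.65, SE 0.30, adjusted p = 0.000275). Wnt5b, a ligand of prehypertrophic cells, had 29.7, 25.4 and 74.2 CPM in MatC and 3.17, 3.23 and 2.69 CPM in Bone (-3.81, SE 0.47, adjusted p = 0.00335). Wnt11 (-4.85) and Wnt5a (-2.42, adjusted p = 0.0214) were the other 2. Among secreted inhibitors, Wif1 (chromosome 10, 121033960 to 121100650, plus strand), which binds Wnt ligands, was at 209, 243 and 235 CPM in Bone and 25.5, 17.1 and 14.9 CPM in MatC (3.57, SE 0.30, adjusted p = 0.000784), and Sfrp2 was at 4.86, 7.31 and 7.29 CPM in Bone and 0.885, 0.790 and 0.286 CPM in MatC (3.15, adjusted p = 0.00958). Another inhibitor, Dkk2, was lower (-3.66, adjusted p = 0.0450), and the receptors Lgr6 (1.82) and Lgr5 (-3.95) differed in opposite directions. Tcf7, given above, was the other gene called higher. Lef1 had adjusted p = 0.758. Genes that did not pass the filter included the ligands Wnt6 (26 reads in Bone, 0 in MatC) and Wnt16 (21, 38). The inhibitors Sfrp5 (1, 25) and Kremen2 (23, 59) did not pass it either. The calls of Wnt4, Wnt5b and Wif1 were made in every leave-one-out fit, with Wnt5b at -3.18 without MatC 3. Sfrp2 and Lgr6 calls were not made in every such fit. Those of Wnt5a, Lgr5 and Dkk2 ended without each Bone library and that of Wnt11 without Bone 1 or 2, and their sizes rested partly on MatC 1: without it Wnt5a was at -1.69, Wnt11 at -4.13, Lgr5 at -3.01 and Dkk2 at -1.78.

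In the BMP and TGF-beta list, 40 of 41 genes were tested, 6 called lower and 2 higher (median -0.19). Among all genes tested, 5.72% were lower and 3.32% higher. Bmp4 was at 34.2, 23.4 and 19.9 CPM in Bone and 4.5, 7.17 and 2.86 CPM in MatC (2.36, SE 0.40, adjusted p = 0.0119), and the intracellular inhibitor Smad6 at 46.3, 46.2 and 44.4 CPM in Bone and 3.83, 12.9 and 2.57 CPM in MatC (2.76, SE 0.54, adjusted p = 0.0198). Gdf10, a TGF-beta family ligand, was at 34.7, 13.5 and 30.8 CPM in MatC and 1.004, 0.850 and 1.65 CPM in Bone (-4.46, adjusted p = 0.00219). Tgfbi, a secreted adhesion protein, was at 90.6, 83.1 and 149 CPM in MatC and 3.70, 8.67 and 11.9 CPM in Bone (-3.73, adjusted p = 0.00361). The extracellular antagonists Bmper (-2.02) and Chrdl1 (-2.01), Id4 (-3.13) and Tgfb2 (-1.94) were the other genes lower. Gdf10 and Tgfbi were called in every leave-one-out fit, and Tgfbi was not called with all 9 libraries in the fit. Calls of Chrdl1, Id4 and Tgfb2 were not made in every leave-one-out fit. Bmp4 ended without Bone 1 or 2, and Smad6 and Bmper without each Bone library; Smad6 was at 3.78 without MatC 2.

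Among growth factor genes the FGF receptor Fgfr3 and the imprinted RNA H19 stood out. The lists below stand beside 3.32% called higher and 5.72% called lower among all genes tested. Of 19 FGF genes 17 were tested and 3 were called lower (median -0.44): Fgfr3, the receptor that restrains chondrocyte growth, at 278, 179 and 602 CPM in MatC and 20.9, 38.8 and 39.9 CPM in Bone (-3.41, SE 0.51, adjusted p = 0.00764), its relative Fgfrl1 (-1.95, adjusted p = 0.00774) and the ligand Fgf9 (-2.13, adjusted p = 0.0404). Fgfr1 was at 123, 154 and 137 CPM in Bone and 54.6, 88.9 and 74.5 CPM in MatC, without a call (0.93, adjusted p = 0.0628), and Fgfr2 overlapped. In the insulin-like growth factor list, 12 of 14 were tested. H19, the imprinted noncoding RNA next to Igf2, was at 2790, 2370 and 4175 CPM in MatC and 493, 316 and 536 CPM in Bone (-2.79, SE 0.39, adjusted p = 0.00594). Igf2 itself was at -1.63 (adjusted p = 0.0519), Igf1r was lower (-1.05, adjusted p = 0.0279) and Igfbp5 higher (1.87, adjusted p = 0.0470). The Fgfr3 and H19 calls ended without Bone 2 (adjusted p = 0.0573 and 0.0554), and those of Fgfrl1, Fgf9, Igf1r and Igfbp5 without each Bone library, Fgf9 also without MatC 1 and Igfbp5 without MatC 2 or 3. Fgfr3 was at -2.78 without MatC 3 and Igfbp5 at 2.59 without MatC 1. No gene was called among 12 tested Notch genes, where Hey1, at 68.8, 62.3 and 74.9 CPM in Bone and 7.30, 17.1 and 0 CPM in MatC, came closest (2.98, adjusted p = 0.0648, and called without MatC 2 or 3, with no filter, with limma-voom and with the replicate block), or among 6 tested osteoclast-regulating signals, where Csf1 and Cxcl12 had adjusted p of 0.362 and 0.849 and Csf1 was called without MatC 1 (-0.99, adjusted p = 0.0442).

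**Figure D3:**
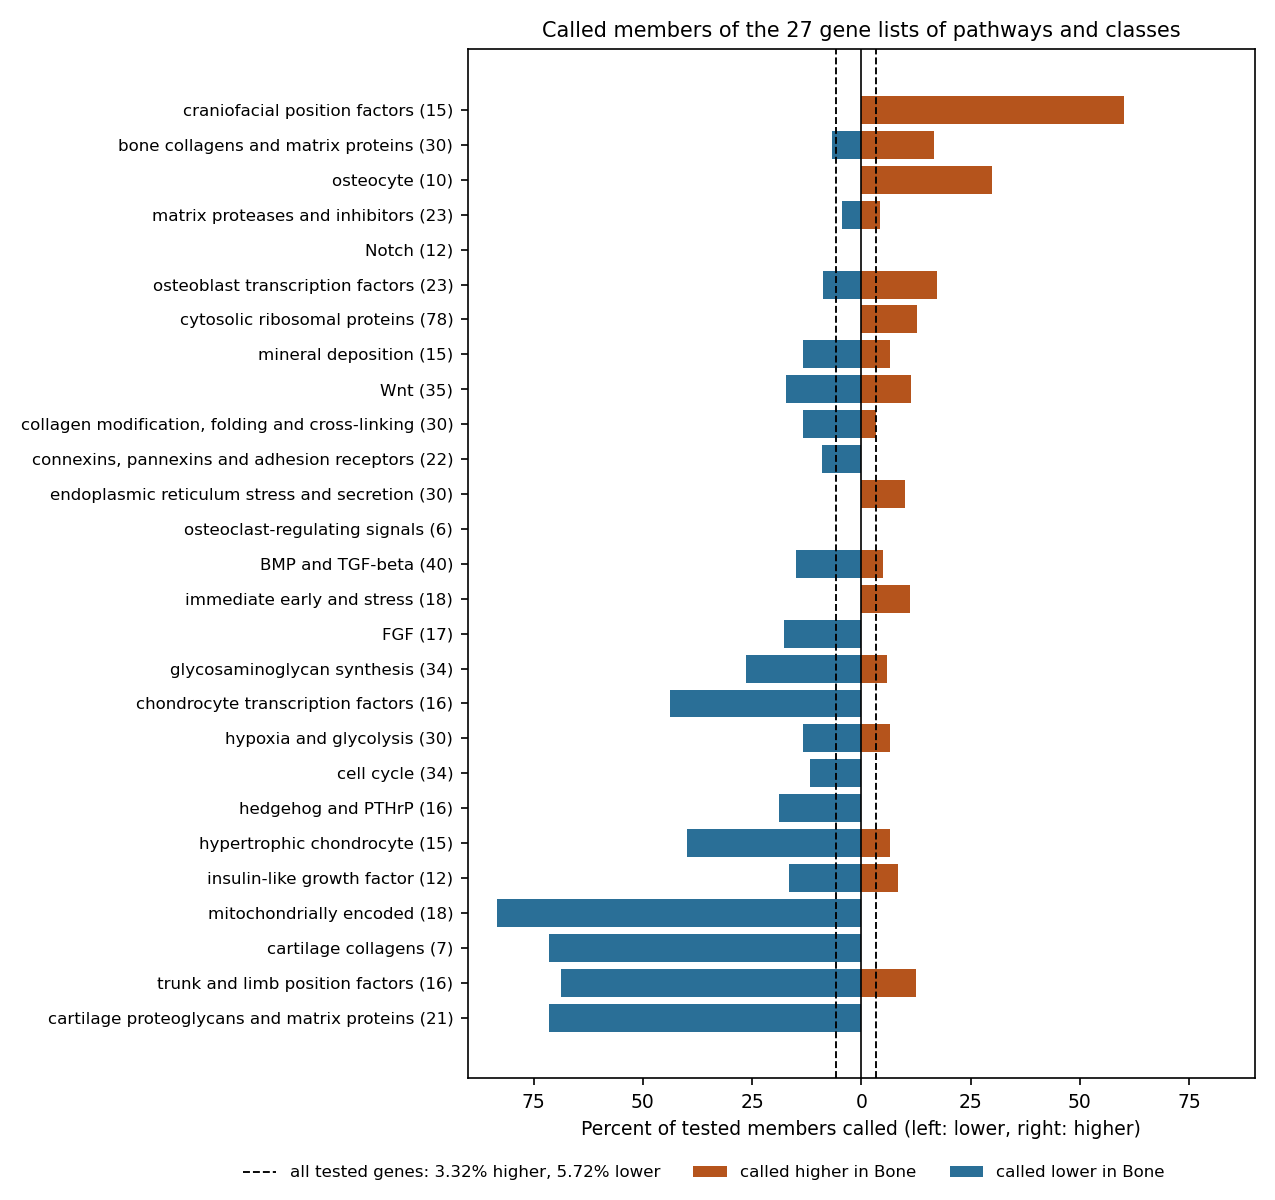
Percent of the tested members of each gene list called higher (right) and lower (left) in Bone, ordered by the list's median log2 fold change, with the number tested in parentheses and dashed lines at the shares of all tested genes, 3.32% higher and 5.72% lower. Cartilage matrix, trunk and limb position and mitochondrial lists extend farthest left, and the craniofacial position list farthest right.

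Transcription factors that mark position in the body also separated the groups. Hox genes record head-to-tail and limb position and are silent in most of the head skeleton, whereas Lhx6, Lhx8, Msx1, Barx1, Gsc and Dlx genes pattern the jaws and face. Over all 39 Hox genes in the table the MatC libraries held 3484, 2670 and 781 reads and the Bone libraries 45, 25 and 88, of which Hoxd8 made up a large part (19, 6 and 36 reads were left in Bone without it). Of 48 trunk and limb factors 16 passed the filter, 11 of them called lower and 2 higher (median -7.14), beside 5.72% and 3.32% of all genes tested. A gene read in 1 group alone can pass only through that group. Hoxa9 (chromosome 6, 52223100 to 52231089, minus strand) had 50.4, 50.7 and 48.3 CPM in MatC and 2 reads in Bone, a ratio of pooled counts of 1231 (95% counting interval 340.1 to 10170). Hoxa10 (-9.49), Hoxa5 (-8.39) and Hoxd9 (-7.99) were nearly as far apart. Tbx5, a forelimb factor, had 12.2, 20.4 and 4 CPM in MatC and at most 0.0548 CPM in a Bone library (-7.97, adjusted p = 0.00224). Shox2, of the proximal limb, had 90.3, 101 and 108 CPM in MatC and 7.93, 12.1 and 17 CPM in Bone (-3.01, adjusted p = 0.00208). The 2 called higher in Bone were Pitx1, of hindlimb and first pharyngeal arch, at 18.7, 16.2 and 16.0 CPM and read in MatC 2 alone among MatC libraries (5.83, adjusted p = 0.00647), and Emx2 (3.85, adjusted p = 0.0164). The Emx2 call ended without each Bone library.

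Of 23 craniofacial factors 15 were tested, 9 called higher in Bone and none lower (median 3.51), beside 3.32% and 5.72% of all genes tested. Here too a gene read in 1 group alone can pass the filter only through that group. The members were chosen with earlier results of these data known. Lhx8 (chromosome 3, 154306294 to 154330659, minus strand) was at 34.0, 41.0 and 38.5 CPM in Bone with 2 reads in MatC, a ratio of pooled counts of 602.4 (95% counting interval 166.5 to 4978), and had the smallest p of any gene tested (log2 fold change 9.06, adjusted p = 0.00027). Msx1 (chromosome 5, 37820485 to 37824583, minus strand) was at 83.2, 82.5 and 61.8 CPM in Bone and 3.47, 2.70 and 1.43 CPM in MatC (4.81, SE 0.35, adjusted p = 0.000471). Lhx6 (4.98), Dlx1 (7.06), Dlx2 (6.80), Barx1 (4.22), Gsc (3.51) and Nr2f1 (3.30) were higher as well. Of these, the calls of Dlx1, Barx1, Gsc and Nr2f1 were not made in every leave-one-out fit. Pax3 was uneven within Bone, at 99.7 CPM in Bone 1 and 2.04 and 4.66 CPM in Bone 2 and 3, beside at most 0.571 CPM in MatC (adjusted p = 0.0440), and its call ended in 5 of the 6 leave-one-out fits, all but that without Bone 3. Alx4 overlapped between the groups. The calls of Lhx8, Lhx6, Msx1, Dlx2, Pitx1, Hoxa5, Hoxa9, Hoxa10, Hoxd8, Hoxd9, Tbx5 and Shox2 were made without any 1 library, with other sizes for some: Dlx2 at 10.19 and Pitx1 at 10.81 without MatC 2, Dlx2 at 6.02 and Pitx1 at 5.03 without MatC 1, and Hoxa9 at -12.29, Hoxa10 at -10.58 and Hoxd9 at -9.56 without Bone 3. Since the labels give no anatomical site and these factors differ with the group, tissue and site of origin cannot be told apart for any gene described here.

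**Figure D4:**
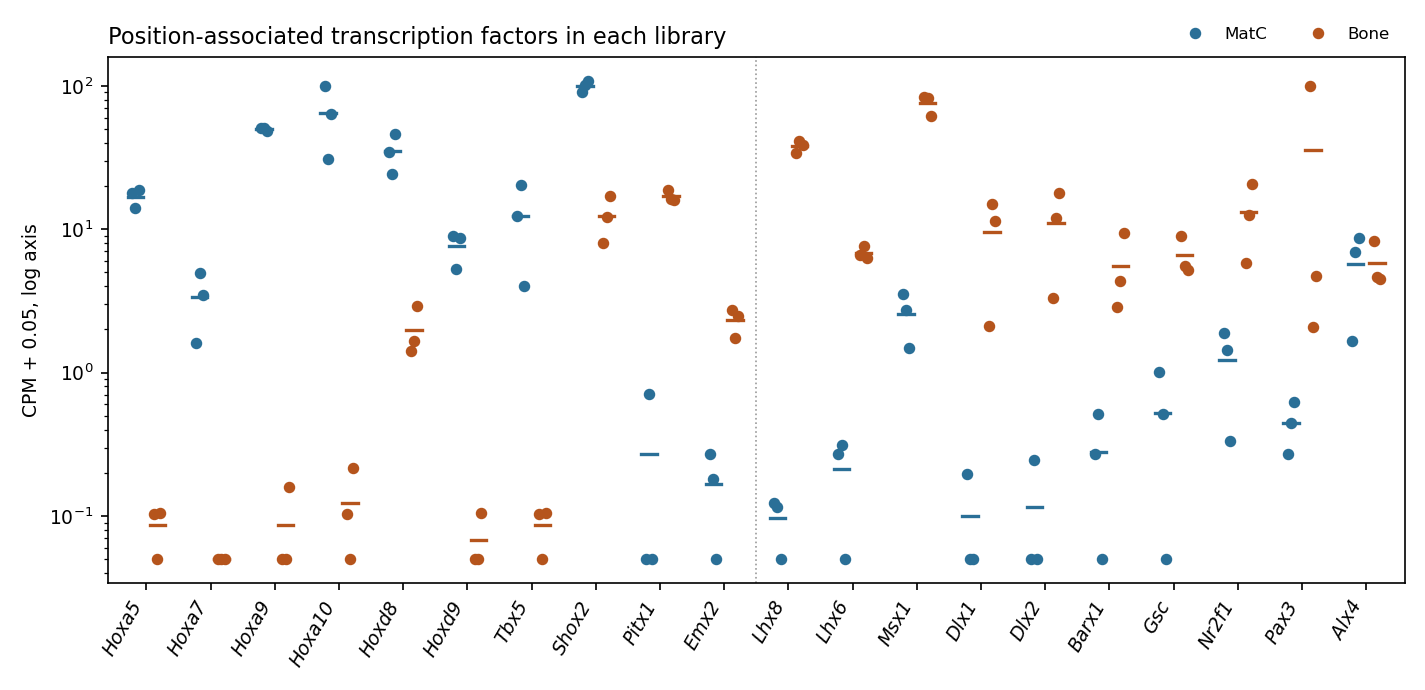
CPM plus 0.05 on a log axis for trunk and limb factors (left of the dotted line) and craniofacial factors (right), with 1 point for each of the 3 MatC and 3 Bone libraries and a bar at the group mean. Hox points of Bone lie at or near 0 counts apart from Hoxd8, and the MatC points of Lhx8 lie at or near 0 counts.

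The 12 genes with the largest differences in each direction, among those averaging at least 20 CPM in the higher group, also named genes from no list. Higher in Bone were Lhx8, Pax3, Msx1 and Wif1 from above and 8 others. Crym, a thyroid hormone-binding protein (chromosome 7, 120186380 to 120202111, minus strand), was at 39.7, 50.3 and 41.6 CPM in Bone and 0.737, 2.96 and 0 CPM in MatC (4.88, SE 0.71, adjusted p = 0.00696). Ramp1, a subunit of the receptor for calcitonin gene-related peptide, was at 96.2, 154 and 108 CPM in Bone and 3.39, 13.8 and 2.57 CPM in MatC (4.11, adjusted p = 0.00774). Gal, the neuropeptide galanin, was at 22.3, 22.6 and 18.8 CPM in Bone and 1.11, 1.51 and 0 CPM in MatC (4.33, adjusted p = 0.00503). Crym, Ramp1, Gal, Ranbp3l (3.93), Arl4d (4.26) and Pcbd1 (3.64) were called in every leave-one-out fit, while Cpz (4.28, adjusted p = 0.0384) and the formin Fhod3 (3.56, adjusted p = 0.0228) ended without each Bone library. Leaving out MatC 2, the MatC library highest for most of these, gave 6.34 for Crym, 5.28 for Ramp1, 4.87 for Ranbp3l, 5.13 for Arl4d, 8.29 for Cpz and 4.45 for Fhod3, and Cpz was at 3.57 without MatC 1. On the lower side, 9 of the 12 were cartilage matrix genes, among them Col10a1 and 3110079O15Rik (Snorc, a chondrocyte proteoglycan, -9.90), and another was Hoxa9. The last 2 were Fam180a, with 1 read in Bone (ratio of pooled counts 797.6, 95% counting interval 142.5 to 31560), and 4932435O22Rik, a long intergenic noncoding RNA (chromosome 11, 114413401 to 114448860, minus strand) with 0 reads in Bone and 391 in MatC, at least 197.6-fold lower. Its call ended without each Bone library, and MatC 3, at 58.5 CPM beside 9.51 and 3.75, carried most of its level (-9.68 without it). Fam180a was at -9.52, and at -11.07 without Bone 1.

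General cell programmes held calls as follows, beside 3.32% higher and 5.72% lower among all genes tested. Among 34 cell cycle genes, all tested, 4 were called lower in Bone and none higher (median -0.60): Mki67, at 18.8, 20.5 and 30.7 CPM in Bone and 43.7, 73.2 and 161 CPM in MatC (-1.98, adjusted p = 0.0390), Bub1 (-1.72), Cenpe (-1.24) and Top2a (-1.06). Of 30 tested hypoxia and glycolysis genes 4 were lower, the glucose transporter Slc2a1 (-2.24), Pfkp (-2.63), Hk2 (-1.01) and Car12 (-7.69). The 2 called higher were Ndrg1 (1.62) and Adm (3.59). Adm had 40 reads in Bone and 2 in MatC, a ratio of pooled counts of 13.19 (counting interval 3.42 to 112.7). Its mean of 0.83 CPM in Bone was below the level of 3 reads in MatC 3. Car12 had 1 read in Bone and 165 in MatC, a ratio of pooled counts of 250.2 (counting interval 44.29 to 9942). With scaling by library size alone Hk2 had a value of 0.001, Top2a of -0.02, Cenpe of -0.05, Mki67 of -0.56 and Bub1 of -0.68, none of them called. Of 30 endoplasmic reticulum genes 3 were higher, Sec24d, Sec61b and Xbp1, with log2 fold changes of 0.99 to 1.37. Klf4 (1.17) and Zfp36 (1.79) were the 2 called, both higher, of 18 tested immediate early and stress genes, and Fos and Jun had adjusted p of 0.198 and 0.618. In the adhesion list the integrins Itga1 (-4.44, adjusted p = 0.0150) and Itgb8 (-3.44, adjusted p = 0.0153) were lower, and the osteoblast connexin Gja1, at 161, 204 and 153 CPM in Bone and 98.0, 125 and 33.7 CPM in MatC, was not called (1.01, adjusted p = 0.183). Car12 alone of the named genes of this paragraph was called in every leave-one-out fit. Car12 was at -9.44 without Bone 2. None of the other calls of these lists was made in all such fits, and without MatC 2 the 4 cell cycle calls and those of Xbp1, Sec24d, Sec61b and Adm ended. Mki67 was at -1.32 without MatC 3 and Itgb8 at -4.49 without Bone 1.

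Of 78 cytosolic ribosomal protein genes 10 were called higher in Bone and none lower, beside 3.32% and 5.72% of all genes tested. In all, 71 of the 78 had a log2 fold change above 0 (median 0.64). Rps26, at 938, 1055 and 904 CPM in Bone and 433, 352 and 280 CPM in MatC, was among the 10 called (1.44, adjusted p = 0.0207). None of the 10 calls was made in every leave-one-out fit, and those of Rps26, Rps9, Rps13 and Rps16 ended without each Bone library and with scaling by library size alone. Mitochondrially encoded transcripts went the opposite way: 18 of 37 were tested and 15 called lower (median -4.34). mt-Co1, a subunit of cytochrome oxidase, was at 4688, 5672 and 6602 CPM in Bone and 21920, 96620 and 181300 CPM in MatC (-4.14, adjusted p = 0.0254). These levels go with the mitochondrial shares of 33.7% to 82.3% in MatC given above. The calls of mt-Tp (-6.54), mt-Atp8 (-6.23), mt-Nd1 (-4.77) and mt-Nd5 (-4.15) ended without each single Bone library, and without MatC 3 their values were -4.57, -4.17, -3.79 and -3.02. With the mitochondrial genes removed before scaling, the fit called 398 genes higher and 824 lower and kept 1142 of the 1204.

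Markers of other cell types were read in both groups, and their part in the results above was not tested. The calls among them stand beside 3.32% higher and 5.72% lower among all genes tested. Summed CPM of 12 listed red cell genes in the table was 7900 to 11030 in Bone and 1157 to 4413 in MatC, with 3 of 10 tested called higher in Bone: Hbb-bs (1.96), Hbb-bt (2.32) and Hba-a2 (2.22), copies of globin genes whose reads may be split. The 14 osteoclast markers summed to 549.8 to 1193 CPM in Bone and 175.6 to 728.9 CPM in MatC, with the highest MatC value in MatC 2, and 1 of 13 tested, Calcr, was called higher (3.61, adjusted p = 0.0472). Ctsk and Acp5, the defining protease and phosphatase of osteoclasts, were at 251.5 to 406 and 61.6 to 212 CPM in Bone and at 1.71 to 162 and 2.57 to 90 CPM in MatC. Endothelial markers summed to 82.8 to 239.9 CPM in Bone and 129 to 395.6 CPM in MatC, and of 18 tested the 1 called, Erg, was lower (-3.30, adjusted p = 0.0272), a factor that cartilage also expresses. Macrophage and leukocyte markers, 14 tested and none called, summed to 60.01 to 145.4 and 31.1 to 118.7 CPM. Skeletal muscle markers reached 687.8 CPM in MatC 2 and 209.5 CPM in Bone 3, against 17.8 to 178.4 CPM in the other 4 libraries, and 1 of 14 was called lower (Tnni2, -3.12).

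Markers of fibrous tissue summed to 265.5 to 320 CPM in Bone and 129 to 687.8 CPM in MatC, with the tendon gene Tnmd called lower of 15 tested (-5.36, adjusted p = 0.0255, and -4.08 without MatC 1). Nerve markers summed to 29.8 to 40.6 CPM in Bone and 138 to 278.1 CPM in MatC, and 3 of 9 tested were lower, S100b, Cdh19 and Mbp. S100b, which chondrocytes also make, was the best read of the 3 in MatC, with 82.3, 83.6 and 215 CPM in MatC and 0.952, 0.595 and 0.823 CPM in Bone (-7.28, adjusted p = 0.000471). Among 3 tested adipocyte genes Lpl was lower (-3.31, adjusted p = 0.00527), while Adipoq and Lep had 0 reads in both groups. Epithelial markers summed to at most 5.87 CPM in Bone and 14.6 CPM in MatC, and 2 of 12 could be tested. The S100b, Cdh19 and Lpl calls were made in every leave-one-out fit, whereas those of the 3 globins, Calcr, Erg, Tnni2, Tnmd and Mbp each ended without Bone 1 or Bone 2. Hba-a2, Hbb-bs and Hbb-bt ended also without MatC 1, Hba-a2 and Calcr without MatC 3 and Calcr without MatC 1, and Tnni2 without MatC 2 or 3. Without MatC 2, Calcr was at 5.61, Hba-a2 at 3.16 and Hbb-bt at 3.12; without MatC 3, Erg was at -2.32 and S100b at -6.66; and without Bone 3, Tnni2 was at -4.14.

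**Figure D5:**
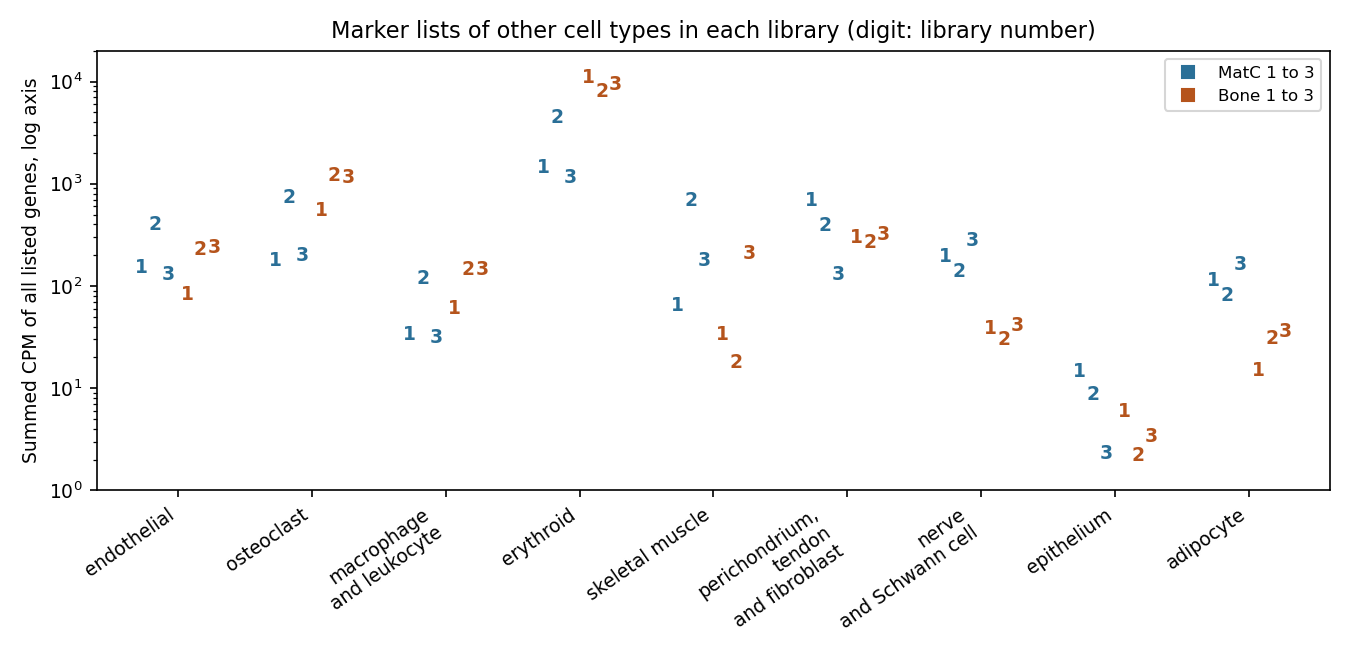
Summed CPM, on a log axis, of all listed markers of 9 other cell types in each library, where the digit gives the library number and the colour the group. MatC 2 lies above MatC 1 and MatC 3 for endothelial, osteoclast, macrophage, erythroid and muscle markers, and Bone 1 lies below Bone 2 and 3 for endothelial, osteoclast and macrophage markers.

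By gene type, 12550 of the tested genes (94.2%) matched 1 position in the GENCODE M21 annotation. Protein-coding genes made up 11678 of them, with 404 (3.46%) called higher and 620 (5.31%) lower. Of 569 long noncoding RNA genes 8 (1.41%) were higher and 48 (8.44%) lower, and of 217 pseudogenes 7 were higher and 25 (11.5%) lower. Reads of pseudogenes may belong to their parent genes, and because the library kit does not mark strand, reads of an antisense gene and its partner cannot be told apart.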

How the data were processed

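The table analysed holds raw counts of reads per gene, deposited by the authors. The submitters' processing notes name Trimmomatic 0.30, TopHat2, Bowtie2, HTSeq, edgeR and the build mm10, with no role or order, and per the labels' protocols the RNA was amplified for 1 round and the kit marks no strand, so levels can include amplification bias. The normalized table deposited beside the counts was not used.

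Genes were kept by edgeR's filterByExpr with a minimum count of 10, scaled by TMM and tested with edgeR 4.0.16 (R 4.3.3) by the quasi-likelihood F-test on the 6 Bone and MatC libraries, with Benjamini-Hochberg adjustment over all tested genes and a threshold of 0.05. Every adjusted p printed is from this test unless another tool is named. Ranges over the 15 alternatives are an exception, since they also take in the DESeq2 and limma-voom fits. The procedure was also run on simulated counts with the same dispersion in both groups. That simulation does not cover the wider spread or the mitochondrial shares of the MatC libraries. The samples were grouped by the labelled cell type. The 36 gene lists and the members were chosen with earlier results of these data known. The genes named by rule were 28 fixed genes, the 12 largest called changes per direction without overlap and with a mean of at least 20 CPM in the higher group, the 4 called members of each list with the smallest p and any called against the sign of its list's median (the 2 most abundant tested members where none was called) and the 5 most abundant non-mitochondrial genes of each group, 152 in all; further list members were named after their values were seen. The 15 alternatives included DESeq2 1.42.0, limma 3.58.1 (voom), other scalings and filters, and leaving out each library. Of ratios against few reads, 95% intervals and floors of 3 reads cover counting error only. Totals ran from 7913684 to 23159547 counts, and low levels are least precise in MatC 3. Positions are from GENCODE M21 and promoter windows from RefSeq (GRCm38.p6), which held 9544 of the tested genes. Some genes named by the rule are not reported here.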

Additional observations from a re-analysis of the deposited data

How the results depend on the processing

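Counts of genes called higher and lower in Bone (442 and 762) depended on the processing. Scaling by library size alone, which moved the median of all genes to 0.98, gave 153 and 181, and there the value of Hk2 turned from -1.01 to 0.001. Library totals in that scaling include the mitochondrial counts, a larger part of MatC than of Bone. With no filter on low counts 860 and 1325 were called, with DESeq2 931 and 1432, and with all 9 libraries in the fit 195 and 669. limma-voom gave 631 and 670. Relative log expression size factors, removal of mitochondrial genes and a minimum count of 50 kept both counts within 1.5 times. Leaving out 1 library at a time gave 36 to 815 higher and 175 to 1492 lower. With the replicate number as a block, 349 and 589 genes were called. No pairing by number was seen: deviations of same-numbered libraries from their group means correlated at -0.081, -0.092 and -0.154. Differently numbered libraries gave -0.009 to 0.119. With 3 libraries per group these values cannot settle whether libraries were paired. Over the named genes, 1791 gene-by-alternative values kept both direction and side of the threshold, 390 lost the call, 40 gained it and 1, that of Hk2, turned sign from a called value. Another 27 turned sign without a call on either side, and 9 of the 25 named genes that were not called had both signs over the alternatives, among them Dmp1, Spp1, Sox6, Csf1, Notch2, Cxcl12 and Mmp13. Of the 127 named calls, 70 ended with scaling by library size alone. The 57 that held were those of Acan, Col10a1, Ihh, Foxa3, Sparc, Lhx8, Msx1, Pax3, Crym, Gal, Cpz, Arl4d, Ramp1, Ranbp3l, Pcbd1, Wif1, Scrg1, 4932435O22Rik, Comp, Epyc, Matn3, Lect1, Hoxa9, Matn1, 3110079O15Rik, Fam180a, Col9a3, Col9a1, Col27a1, Col9a2, Matn4, Foxa2, Cebpb, Msx2, Dlx3, Mepe, Colgalt2, Wnt4, Wnt5b, Gdf10, Bmp4, Smad6, Hoxa5, Hoxa10, Hoxd9, Pitx1, Emx2, Lhx6, Dlx2, Car12, Adm, Calcr, S100b, Cdh19, mt-Tp, mt-Atp8 and mt-Nd1. Each group had 3 libraries, and MatC 3 held 1904092 non-mitochondrial counts, which limits what can be read of genes at low levels.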
